A study of Mus musculus with 16 samples.

Results

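The miR-30 family was followed through its 10 listed mature miRNAs, the 5p and 3p arms of miR-30a, miR-30b, miR-30c, miR-30d and miR-30e, chosen by name from the 1978 mature mouse miRNAs of the count table. The table lists the guides as mmu-miR-30a-5p, mmu-miR-30b-5p, mmu-miR-30c-5p, mmu-miR-30d-5p and mmu-miR-30e-5p, and their opposite arms as mmu-miR-30a-3p, mmu-miR-30b-3p, mmu-miR-30c-2-3p, mmu-miR-30d-3p and mmu-miR-30e-3p, and the species prefix is left out below. All 10 passed the filter on low counts and were among the 483 miRNAs tested. RNA came from perinatal mouse forebrain neurons in primary culture, every culture transduced with a lentiviral vector. The control group, Empty_Vector, received a vector without a hairpin. The other groups received a small hairpin RNA (shRNA), the same hairpin with 2 point mutations (shRNA_2bp) or with 5 point mutations (shRNA_5bp). Each of the 4 groups had 4 libraries. The labels give neither the hairpin's sequence and target, nor the promoter and scaffold that carry it, nor the age, strain or sex of the animals. The labels do not say whether replicates were separate cultures, so p-values measure the spread between these libraries, which may be technical. The series title names its question as changes in neuronal miRNAs that do not depend on the hairpin's target.

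A miRNA is cut from a hairpin precursor by Drosha and Dicer, and 1 arm of the resulting duplex, the guide, is loaded into an Argonaute protein, where its seed (bases 2 to 8) pairs with target mRNAs. The opposite arm, the passenger, is usually degraded, although for some precursors it is loaded as well. The miR-30 5p arms share a seed and are known regulators of cell differentiation and, in brain, of the growth factor Bdnf, and both arms of miR-30a and miR-30e are commonly found in cells. Short hairpin RNAs made in the nucleus use the export factor, Dicer and Argonaute proteins that miRNAs also use.

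RefSeq entries on GRCm38.p6 gave mature sequences for 6 of the 10 listed members and for related arms, namely miR-30c-1-3p and miR-384-5p. They are shown because family membership rests on the seed (capitals), while the rest of the sequence decides how well members can be told apart in a read. The 5p arms were:
miR-30a-5p: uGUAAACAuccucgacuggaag
miR-30e-5p: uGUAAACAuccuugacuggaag
miR-30c-5p: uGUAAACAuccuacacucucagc
miR-384-5p: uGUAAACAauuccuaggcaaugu

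The 3p arms with a sequence shown fall into 2 seed groups, UUUCAGU for miR-30a and miR-30e and UGGGAGA for the copies of miR-30c:
miR-30a-3p: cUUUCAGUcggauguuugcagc
miR-30e-3p: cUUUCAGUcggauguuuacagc
miR-30c-2-3p: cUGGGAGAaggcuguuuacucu
miR-30c-1-3p: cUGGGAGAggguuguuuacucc

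A search of 1679 mature miRNA names, which covered 6 of the 10 listed members and no arm of miR-30b or miR-30d, found the seed GUAAACA in miR-30a-5p, miR-30c-5p, miR-30e-5p and miR-384-5p. MiR-30a-5p and miR-30e-5p are identical at 21 of 22 bases and differ by C13U, counted from the 5′ end with the miR-30a base first. MiR-30a-3p and miR-30e-3p differ by G18A alone. How the authors assigned reads that fit more than 1 miRNA is not given in the sources used here, so values of miR-30a and miR-30e may contain reads of each other, and each was also tested with their counts summed. The members sit at 3 pairs of neighbouring loci on GRCm38. Mir30a (chromosome 1, 23272269 to 23272339, plus strand, in no annotated host gene) lies 19.4 kb from Mir30c-2 (23291701 to 23291784, an exon of the long noncoding RNA gene Gm27028). Mir30e (chromosome 4, 120772606 to 120772697, minus strand) and Mir30c-1 (120769534 to 120769622) lie 3.0 kb apart, both in introns of Nfyc, which encodes a subunit of the transcription factor NF-Y. Mir30b and Mir30d lie 3.7 kb apart on chromosome 15. Reads of miR-30c-5p can come from either miR-30c locus, while its 3p arms are distinct by locus.

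Library totals were 2.76 to 11.1 M counts with Empty_Vector, 5.3 to 8.06 M with shRNA, 1.18 to 2.1 M with shRNA_2bp and 0.832 to 2.5 M with shRNA_5bp. Both mutated-hairpin groups were thus shallower than the others without overlap, and depth moved with the group. The most abundant miRNA, the neuronal miR-128-3p, held 38.7 ± 0.75% of counts with Empty_Vector, 33.1 ± 1.21% with shRNA, 24.7 ± 0.623% with shRNA_2bp and 26 ± 1.98% with shRNA_5bp (SD, n = 4), which changes every other miRNA's share of a library. Levels are therefore given as CPM, counts per M of a library total corrected with TMM factors, which assume that most miRNAs do not differ between libraries. Against Empty_Vector, 65.6% of tested miRNAs were called with shRNA_2bp and 58.2% with shRNA_5bp (adjusted p below 0.05), so that assumption is not shown to hold there. The factors were 0.884 to 0.929 with Empty_Vector and 1.04 to 1.12 with shRNA_5bp. All 8 neuronal markers passed the filter on low counts. The microglial markers miR-223-3p and miR-142a-3p had no count in any library.

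In cells with the empty vector, miR-30d-5p was the dominant member, the 15th most abundant of all miRNAs, at 11639 ± 589 CPM (SD, n = 4 here and below). MiR-30c-5p (1689 ± 96.5 CPM, 49th) and miR-30a-5p (1295 ± 62.8 CPM, 58th) followed. MiR-30e-3p at 795 ± 38.8 CPM and miR-30a-3p at 651 ± 45.2 CPM lay above miR-30e-5p (290.0 ± 18.1 CPM) and miR-30b-5p (71.5 ± 9.63 CPM). The remaining 3p arms were scarce, with miR-30c-2-3p at 48.5 ± 4.36 CPM, miR-30b-3p at 28.5 ± 4.63 CPM and miR-30d-3p at 12.3 ± 1.45 CPM. Ranges of neighbours in this order did not overlap among these 4 libraries. The ligation and amplification of small RNA libraries favour some ends over others, so the order between different miRNAs is less certain than a change of 1 miRNA between groups.

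Every hairpin was accompanied by higher levels of the same 4 members, miR-30a-5p, miR-30b-5p, miR-30c-5p and miR-30a-3p. With shRNA, 4 members rose and 1 fell (edgeR quasi-likelihood test, adjusted p below 0.05), where 34.8% of all tested miRNAs were called, 19.7% up and 15.1% down. With shRNA_2bp, 8 rose and 0 fell (65.6% of all called, 33.3% up and 32.3% down), and with shRNA_5bp 7 rose and 2 fell (58.2% of all called, 31.5% up and 26.7% down). The 7 became 5 or 6 whenever any 1 of the 16 libraries was left out, and the number up with shRNA was then 4 to 6. The median log2 fold change of the members was 0.20, 0.67 and 0.28, against 0.04, 0.01 and 0.06 over all tested miRNAs. These 3 comparisons share the same Empty_Vector libraries and are not independent of each other. Separation of the groups was read without a test from the same TMM-scaled levels, so it also depends on that scaling. With shRNA, 3 members lay above all Empty_Vector libraries and 1 below (18.2% and 14.7% of all tested miRNAs did so). With shRNA_2bp 8 lay above and 0 below (29.8% and 29.4% of all), and with shRNA_5bp 5 lay above and 1 below (26.9% and 23.4% of all). The 4 shared rises were called in every alternative run of those comparisons, including thinning all libraries to the same depth and scaling by library totals alone. Thinning gave 4, 8 and 7 members up, the same numbers as at full depth. In bulk cultures, a change in the number of cells of a type and a change in miRNA per cell cannot be told apart.

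**Figure D1:**
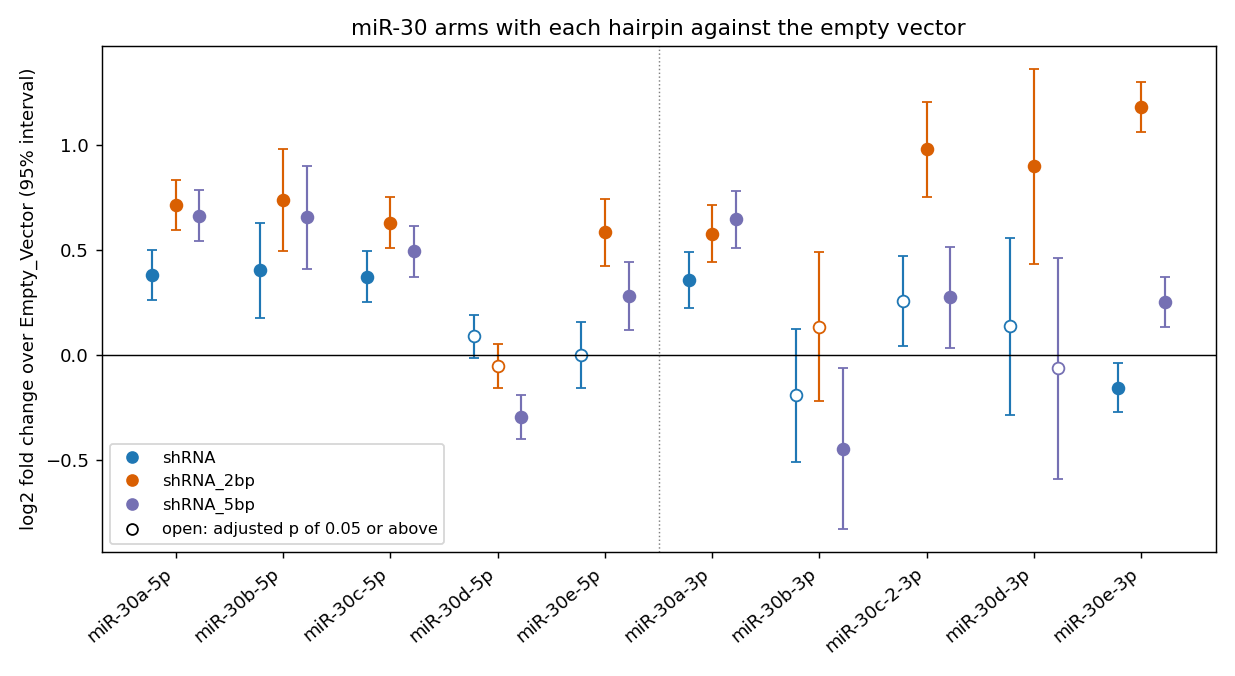
Log2 fold change of each listed member over Empty_Vector (y axis) with its 95% interval, for shRNA, shRNA_2bp and shRNA_5bp. Filled points passed an adjusted p of 0.05 in edgeR's quasi-likelihood test; 3p arms stand right of the dotted line, where miR-30e-3p with shRNA_2bp has the highest value, 1.18, and the miR-30d-5p points lie at 0.09, -0.05 and -0.29 under TMM scaling but at 0.23, 0.13 and -0.05 under scaling by library totals.

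Among the 5p guides, miR-30a-5p showed a clear step between groups. Its level was 1370, 1300, 1216 and 1292 CPM in the Empty_Vector libraries and 1673, 1732, 1652 and 1690 CPM with shRNA. It was 2218, 2169, 2102 and 2013 CPM with shRNA_2bp and 2027, 2250, 1840 and 2082 CPM with shRNA_5bp. All hairpin libraries lay above all Empty_Vector libraries, and both mutated-hairpin groups lay above shRNA. The log2 fold change over Empty_Vector was 0.38 ± 0.0583 with shRNA (SE, adjusted p = 6.27e-06), 0.72 ± 0.0589 with shRNA_2bp (adjusted p = 1.21e-11) and 0.66 ± 0.0591 with shRNA_5bp (adjusted p = 1.06e-10).

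MiR-30c-5p, the guide made at 2 loci, had 1768, 1726, 1549 and 1714 CPM with Empty_Vector, 1993, 2127, 2261 and 2383 CPM with shRNA, 2582, 2599, 2677 and 2616 CPM with shRNA_2bp, and 2293, 2469, 2275 and 2488 CPM with shRNA_5bp. No hairpin library overlapped the Empty_Vector range. Its log2 fold change was 0.37 ± 0.0585 with shRNA (adjusted p = 8.24e-06), 0.63 ± 0.059 with shRNA_2bp (adjusted p = 1.82e-10) and 0.50 ± 0.0591 with shRNA_5bp (adjusted p = 2.64e-08). MiR-30b-5p, the scarcest guide, had 79.3, 60.5, 79.8 and 66.2 CPM with Empty_Vector and 79.6, 100.4, 90.6 and 104 CPM with shRNA, so 1 shRNA library fell within the control range. With shRNA_2bp it had 123, 104, 126 and 121 CPM and with shRNA_5bp 125, 112, 94.3 and 112 CPM, all above the controls. The rises were 0.40 ± 0.111 (adjusted p = 0.00469), 0.74 ± 0.118 (adjusted p = 3.37e-06) and 0.66 ± 0.12 (adjusted p = 2.86e-05) on the log2 scale.

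**Figure D2:**
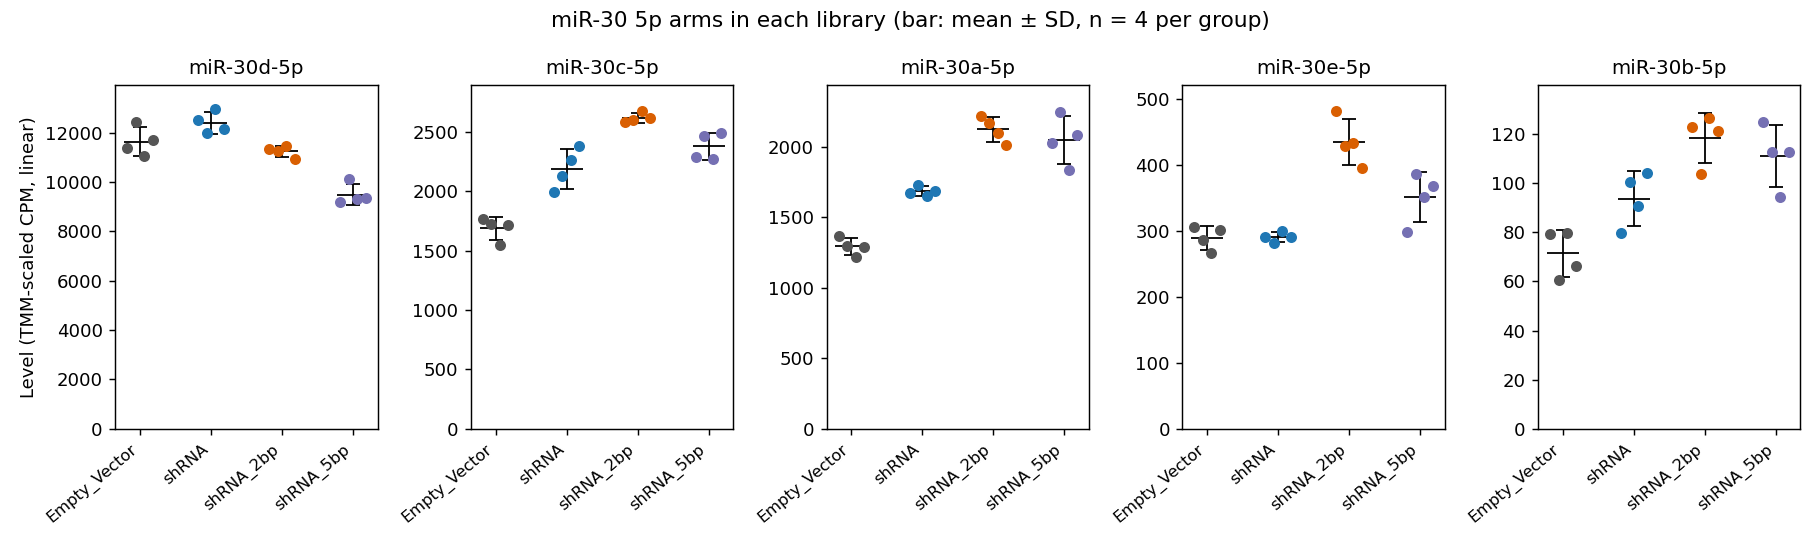
Levels of the 5p arms in TMM-scaled CPM (y axis, linear, from 0) in each library, by group; bars are the mean ± SD of 4 libraries. MiR-30a-5p and miR-30c-5p with any hairpin lie above all Empty_Vector libraries, while miR-30d-5p is lowest with shRNA_5bp at 9201 to 10116 CPM, a difference from Empty_Vector that is not called when libraries are scaled by their totals alone.

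The abundant guide miR-30d-5p was not called higher with any hairpin under TMM scaling of all libraries. It had 11362, 12437, 11068 and 11689 CPM with Empty_Vector, 12514, 11971, 12954 and 12138 CPM with shRNA, 11321, 11253, 11470 and 10937 CPM with shRNA_2bp, and 9201, 10116, 9327 and 9335 CPM with shRNA_5bp. Empty_Vector overlapped both shRNA and shRNA_2bp, and every shRNA_5bp library lay below every other library. Against Empty_Vector the log2 values were 0.09 ± 0.0504 with shRNA (adjusted p = 0.178) and -0.05 ± 0.0505 with shRNA_2bp (adjusted p = 0.395), the latter turning to 0.13 (adjusted p = 0.0241) when libraries were scaled by their totals. The shRNA difference was called a rise under that scaling (0.23, adjusted p = 5.16e-04) and without Empty_Vector replicate 2, shRNA replicate 1 or 2, or shRNA_5bp replicate 4 (0.15 to 0.18, adjusted p 0.0131 to 0.041). With shRNA_5bp it fell by 0.29 ± 0.0506 (adjusted p = 1.25e-05), against -0.05 (adjusted p = 0.398) under scaling by totals. That scaling raises the median log2 fold change of all miRNAs by 0.14, 0.18 and 0.24 in the shRNA, shRNA_2bp and shRNA_5bp comparisons, and miR-30d-5p with shRNA_5bp stayed below that median under both scalings.

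MiR-30e-5p had 306, 287, 266 and 301 CPM with Empty_Vector and 290, 281, 300 and 292 CPM with shRNA, ranges that overlap fully. With shRNA_2bp all libraries were higher, at 481, 430, 434 and 395 CPM, a rise of 0.58 ± 0.0782 on the log2 scale (adjusted p = 1.77e-07). With shRNA_5bp the values were 299, 386, 352 and 368 CPM, with 1 library inside the control range. The test called a rise of 0.28 ± 0.0793 (adjusted p = 0.00305). That call was lost without Empty_Vector replicate 2 or 3 or shRNA_5bp replicate 2 or 4 (adjusted p 0.0747 to 0.117). It was also lost when only these 2 groups were fitted (adjusted p = 0.0506) and without the filter on low counts (adjusted p = 0.744). With shRNA the log2 difference was 0.00 (95% interval -0.15 to 0.16, adjusted p = 0.995).

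Since shares within the guide pool need no scaling between libraries, the make-up of the pool was examined. MiR-30d-5p supplied 76.3 to 78.7% of the summed counts of the 5 guides with Empty_Vector, 73.1 to 75.6% with shRNA, 67.7 to 68.2% with shRNA_2bp and 64.9 to 67.2% with shRNA_5bp. The 4 groups did not overlap. MiR-30a-5p supplied 8.65 ± 0.407% with Empty_Vector, 10.1 ± 0.454% with shRNA, 12.8 ± 0.394% with shRNA_2bp and 14.2 ± 0.662% with shRNA_5bp. MiR-30c-5p went from 11.3 ± 0.457% to 13.2 ± 0.942%, 15.8 ± 0.351% and 16.6 ± 0.516%. The order miR-30d-5p, miR-30c-5p, miR-30a-5p, miR-30e-5p, miR-30b-5p held in all 16 libraries.

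**Figure D3:**
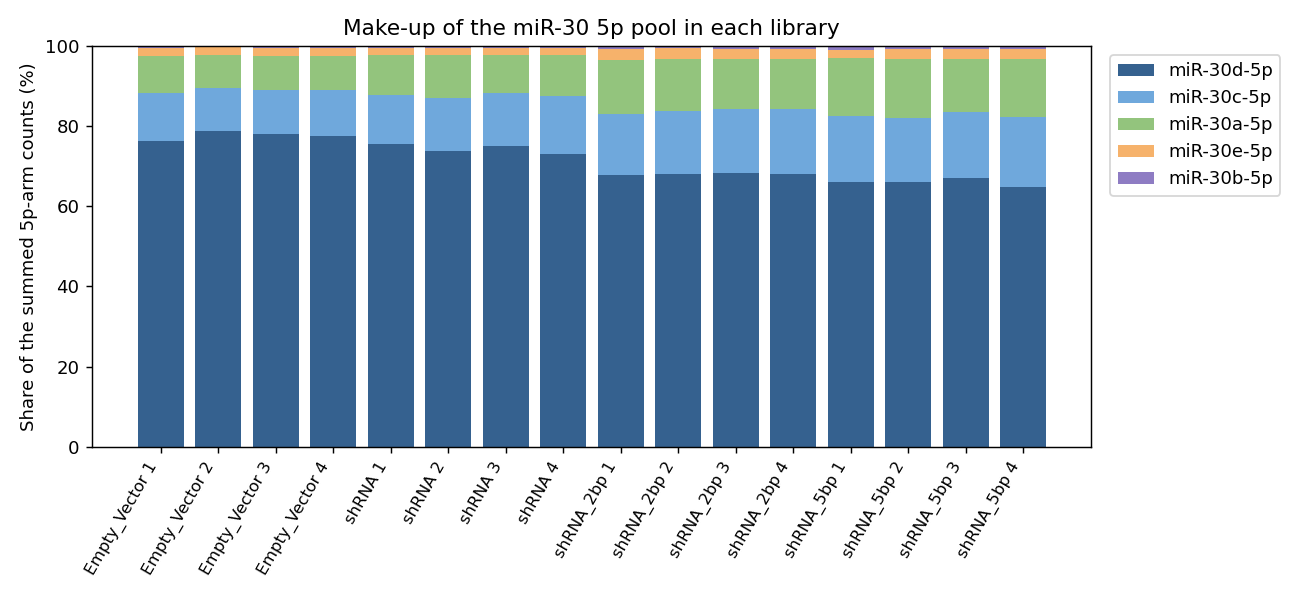
Share of each 5p arm in the summed counts of the 5 guides (y axis, percent), 1 stacked bar per library. The miR-30d-5p share was 76.3 to 78.7% with Empty_Vector and 64.9 to 67.2% with shRNA_5bp, and miR-30c-5p and miR-30a-5p filled most of the difference.

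As part of the whole library, the 5 guides together held 1.36 ± 0.0527% of counts with Empty_Vector, 1.67 ± 0.0756% with shRNA, 1.70 ± 0.0327% with shRNA_2bp and 1.54 ± 0.108% with shRNA_5bp. Leaving miR-128-3p out of the total gave 2.22%, 2.49%, 2.26% and 2.09%, so on that total the shRNA_5bp share lay below the Empty_Vector share and the shRNA_2bp share close to it. Without miR-30d-5p the other 4 guides held 0.303 ± 0.0166% with Empty_Vector, 0.427 ± 0.0329% with shRNA, 0.545 ± 0.0122% with shRNA_2bp and 0.525 ± 0.0471% with shRNA_5bp. The 3p arms held 0.139 ± 0.00655%, 0.165 ± 0.00934%, 0.301 ± 0.00271% and 0.221 ± 0.0049% in the same order. On totals without miR-128-3p the 3p values were 0.227%, 0.246%, 0.400% and 0.299%, again highest with shRNA_2bp.

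MiR-30e-3p and miR-30c-2-3p were higher in every shRNA_2bp library than in every library of the other groups. MiR-30e-3p had 825, 831, 753 and 772 CPM with Empty_Vector and 1812, 1784, 1864 and 1764 CPM with shRNA_2bp, a fold change of 2.27 (log2 1.18 ± 0.0581, adjusted p = 1.05e-16). With shRNA_5bp it had 988, 885, 1017 and 914 CPM, all above the controls, a rise of 0.25 ± 0.0584 (adjusted p = 4.46e-04) that was not called without the filter on low counts (0.02, adjusted p = 0.907). With shRNA it had 749, 725, 685 and 698 CPM, all below the controls. That fall of 0.15 ± 0.0572 (adjusted p = 0.0361) was lost in 10 of 16 fits that left out a library, with adjusted p between 0.0088 and 0.415. It was kept without Empty_Vector replicate 4, shRNA_2bp replicate 3 or 4, or shRNA_5bp replicate 1, 2 or 3. Scaling by totals gave -0.01 (adjusted p = 0.872). Summing miR-30a-3p with miR-30e-3p gave a rise of 0.17 with shRNA instead (adjusted p = 0.0153).

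MiR-30a-3p, which differs from miR-30e-3p by G18A, moved like its own guide. It had 713, 650, 607 and 634 CPM with Empty_Vector, 868, 912, 747 and 813 CPM with shRNA, 980, 933, 1016 and 962 CPM with shRNA_2bp, and 1062, 1018, 1063 and 942 CPM with shRNA_5bp. No hairpin library overlapped the controls. The rises were 0.36 ± 0.0651 (adjusted p = 6.55e-05), 0.58 ± 0.0662 (adjusted p = 9.82e-09) and 0.65 ± 0.0665 (adjusted p = 1.90e-09) on the log2 scale. The leading 3p arm differed between groups. MiR-30e-3p held 51.8 ± 0.83% of the summed 3p counts with Empty_Vector and 61.7 ± 0.418% with shRNA_2bp. With shRNA and shRNA_5bp it held 43.5 ± 1.38% and 46.1 ± 1.08%, and miR-30a-3p was the larger, at 50.7 ± 1.37% and 49.5 ± 1.35%.

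MiR-30c-2-3p, the 3p arm of the locus next to Mir30a, had 45.3, 50.3, 53.8 and 44.6 CPM with Empty_Vector and 104, 91.4, 90.8 and 94.9 CPM with shRNA_2bp. This rise of 0.98 ± 0.111 on the log2 scale (adjusted p = 7.94e-09) left no overlap between the groups. With shRNA it had 60.5, 60.2, 51 and 59 CPM (0.26 ± 0.105, adjusted p = 0.0555) and with shRNA_5bp 58.9, 52.7, 62.1 and 62 CPM, each overlapping the controls in 1 library. The shRNA difference was called a rise under scaling by totals (0.40, adjusted p = 0.00428) and without Empty_Vector replicate 2 or 3, shRNA replicate 2 or 3, or shRNA_5bp replicate 4 (adjusted p 0.0132 to 0.0444). The shRNA_5bp difference of 0.28 ± 0.118 passed the test (adjusted p = 0.048) and was lost in each of the 16 fits that left out a library (adjusted p 0.0503 to 0.357).

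MiR-30d-3p was read only 6 to 149 times per library. It had 11.5, 12.3, 11.2 and 14.4 CPM with Empty_Vector, 11.9, 15.1, 14.2 and 14.2 CPM with shRNA, and 31.7, 21.7, 19.9 and 19.6 CPM with shRNA_2bp, which lay above both. The rise with shRNA_2bp was 0.90 ± 0.226 on the log2 scale (adjusted p = 0.00103). With shRNA_5bp the values were 6.09, 10, 8.05 and 21.3 CPM, a difference of -0.06 ± 0.257 (adjusted p = 0.851) that became -0.62 (adjusted p = 0.0483) without replicate 4. MiR-30b-3p had 32, 32.9, 23.9 and 25 CPM with Empty_Vector, 27.8, 25.5, 22.4 and 24.6 CPM with shRNA, 29.9, 35.7, 38.3 and 20.5 CPM with shRNA_2bp and 18.3, 22.6, 16.1 and 24.3 CPM with shRNA_5bp. All groups overlapped, and against Empty_Vector the test called only the fall of 0.44 ± 0.187 with shRNA_5bp (adjusted p = 0.0437). That call was lost without Empty_Vector replicate 1 or 2, shRNA replicate 4, shRNA_2bp replicate 1 or shRNA_5bp replicate 1 or 3, under scaling by totals (-0.19, adjusted p = 0.39) and after thinning (-0.55, adjusted p = 0.0618).

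**Figure D4:**
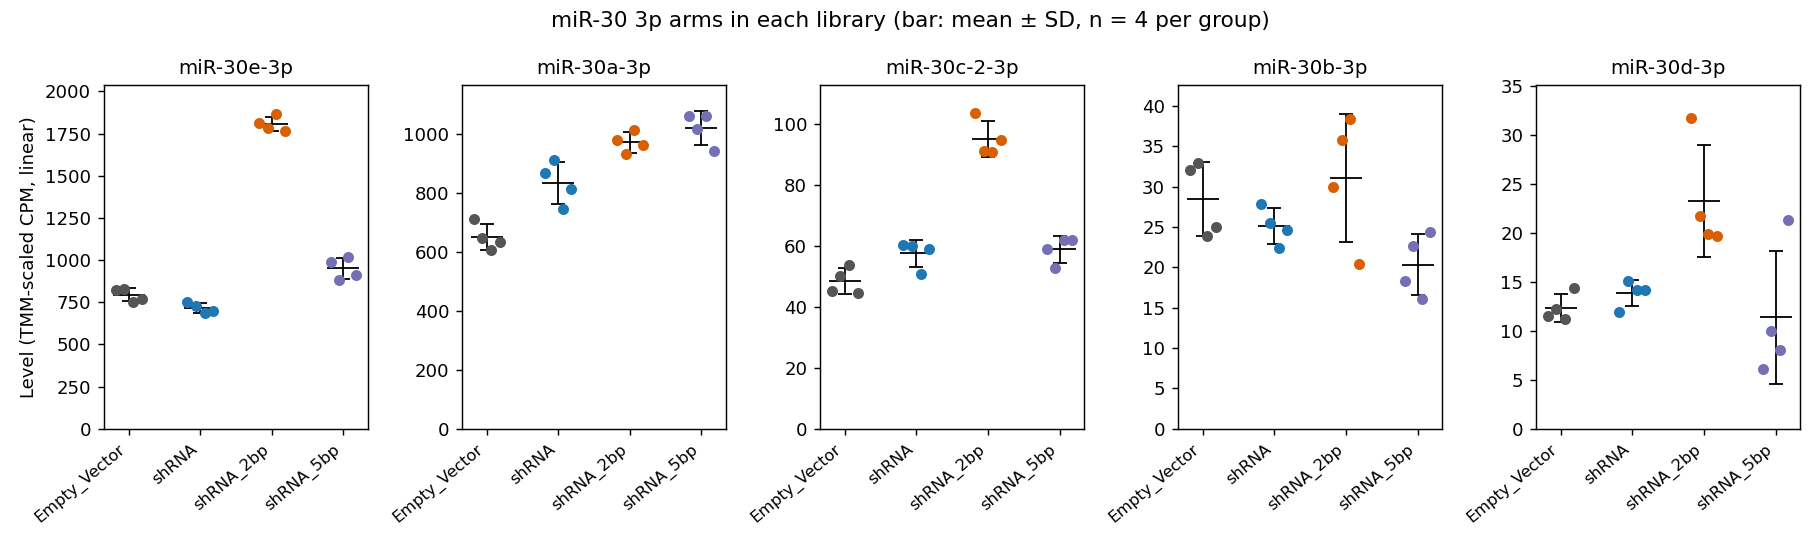
Levels of the 3p arms in TMM-scaled CPM (y axis, linear, from 0) in each library, by group; bars are the mean ± SD of 4 libraries. With shRNA_2bp, miR-30e-3p lies at 1764 to 1864 CPM against 753 to 831 CPM with Empty_Vector, while miR-30b-3p overlaps in all groups.

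The ratio of 5p to 3p counts within a library tested whether both arms of a precursor moved alike, except for miR-30c. There, 5p reads that can come from 2 loci were set over 3p reads of 1 locus. The miR-30c ratios therefore cannot show the arm balance of either precursor. Over 146 arm pairs of all miRNAs the 5p arm was the larger in 83, with a median ratio of 1.93. Of the 5 miR-30 pairs, 1 moved toward 5p and 0 toward 3p with shRNA, where 24.7% of all pairs were called, 13% toward 5p and 11.6% toward 3p (edgeR, adjusted p below 0.05). With shRNA_2bp 1 moved toward 5p and 3 toward 3p (43.8% of all pairs called, 15.8% toward 5p and 28.1% toward 3p), and with shRNA_5bp 1 toward 5p and 0 toward 3p (42.5% of all pairs called, 21.9% toward 5p and 20.5% toward 3p).

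For miR-30e the 3p arm was the larger in every library. The ratio was 0.371, 0.345, 0.353 and 0.390 with Empty_Vector, 0.388, 0.388, 0.437 and 0.417 with shRNA, 0.266, 0.241, 0.233 and 0.224 with shRNA_2bp, and 0.302, 0.437, 0.346 and 0.403 with shRNA_5bp. The shRNA_2bp libraries lay below all others. The log2 ratio differed by -0.60 ± 0.107 between shRNA_2bp and Empty_Vector (adjusted p = 3.31e-05), while shRNA (0.16 ± 0.105, adjusted p = 0.287) and shRNA_5bp (0.03 ± 0.109, adjusted p = 0.819) were not called. With miR-30a and miR-30e summed, the shRNA_2bp difference was -0.25 (adjusted p = 0.0307).

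The miR-30a ratio stayed near 2 to 1, at 1.99 ± 0.0501 with Empty_Vector, 2.03 ± 0.145 with shRNA, 2.19 ± 0.127 with shRNA_2bp and 2.01 ± 0.237 with shRNA_5bp. No comparison of it was called. The 95% intervals of the log2 difference from Empty_Vector were -0.17 to 0.22, -0.06 to 0.33 and -0.18 to 0.22. The ratio of miR-30c-5p to miR-30c-2-3p was 39, 34.3, 28.8 and 38.4 with Empty_Vector and 24.9, 28.5, 29.5 and 27.6 with shRNA_2bp, overlapping in 1 control. This difference of -0.36 ± 0.122 (adjusted p = 0.0182) was lost without Empty_Vector replicate 4 or shRNA_2bp replicate 1. The miR-30c ratios with shRNA (33 to 44.3) and with shRNA_5bp (36.6 to 46.8) were not called against Empty_Vector.

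MiR-30d had the most one-sided pair, with 989, 1013, 991 and 812 reads of 5p for each 3p read in the Empty_Vector libraries and 357, 518, 577 and 557 with shRNA_2bp, which did not overlap. The log2 difference was -0.95 ± 0.208 (adjusted p = 4.42e-04). The shRNA_5bp ratios of 1510, 1009, 1158 and 439 reached from the shRNA_2bp range to above all other groups. MiR-30b moved toward its 5p arm with every hairpin. Its ratio was 2.48, 1.84, 3.33 and 2.64 with Empty_Vector, 2.86, 3.93, 4.04 and 4.23 with shRNA, 4.1, 2.9, 3.3 and 5.92 with shRNA_2bp, and 6.83, 4.97, 5.86 and 4.62 with shRNA_5bp. The log2 differences were 0.60 ± 0.179 (adjusted p = 0.0121), 0.61 ± 0.205 (adjusted p = 0.0151) and 1.12 ± 0.222 (adjusted p = 1.16e-04). The call with shRNA was lost without Empty_Vector replicate 2, and that with shRNA_2bp without Empty_Vector replicate 2 or shRNA_2bp replicate 4.

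**Figure D5:**
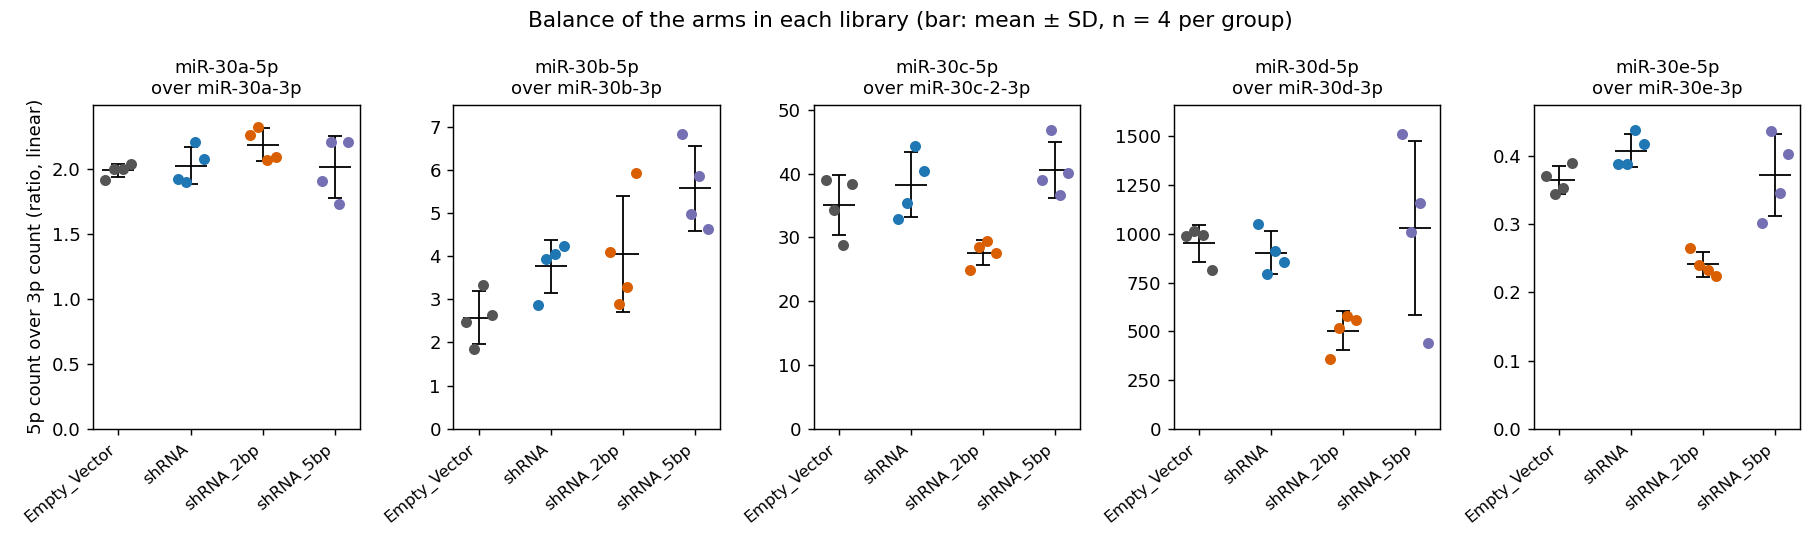
Ratio of 5p to 3p counts (y axis, linear, from 0) for the 5 miR-30 pairs in each library, by group; bars are the mean ± SD of 4 libraries. The miR-30e and miR-30d ratios with shRNA_2bp lie below all Empty_Vector libraries, and the miR-30a ratio lies between 1.73 and 2.33 in all 16 libraries.

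Because the hairpins differ by 2 or 5 point mutations, they were also compared with each other. Against shRNA, 8 members were higher and 1 lower with shRNA_2bp (64.6% of all miRNAs called, 31.1% up and 33.5% down). Without overlap, 7 lay above and 1 below all shRNA libraries (27.5% and 30.8% of all miRNAs). MiR-30e-3p had a log2 difference of 1.34 ± 0.0583 (adjusted p = 5.15e-18), miR-30d-3p of 0.76 ± 0.223 (adjusted p = 0.00406), miR-30c-2-3p of 0.72 ± 0.109 (adjusted p = 1.41e-06) and miR-30e-5p of 0.58 ± 0.078 (adjusted p = 1.80e-07). MiR-30a-5p was higher by 0.33 ± 0.0586 (adjusted p = 1.39e-05). The rise of miR-30b-5p (0.33, adjusted p = 0.0132) was lost without shRNA replicate 1 or 3 or shRNA_2bp replicate 3. The rise of miR-30a-3p (0.22, adjusted p = 0.00481) was lost without shRNA replicate 3 (adjusted p = 0.0554). Both were lost without the filter on low counts (adjusted p = 0.102 and 0.196). Leaving out 1 library gave 6 to 9 members up. The member called lower, miR-30d-5p (-0.14 ± 0.0505, adjusted p = 0.0168), was not called under scaling by totals (-0.10, adjusted p = 0.0822).

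With shRNA_5bp against shRNA, 4 members were higher and 1 lower (53% of all miRNAs called, 28.4% up and 24.6% down). Without overlap, 3 lay above and 1 below all shRNA libraries (24.8% and 23.8% of all miRNAs). MiR-30e-3p was higher by 0.41 ± 0.0584 (adjusted p = 9.41e-07), and miR-30d-5p fell by 0.38 ± 0.0507 (adjusted p = 2.48e-07). Both were called in every alternative. The other rises, of miR-30a-5p (0.28, adjusted p = 1.69e-04), miR-30e-5p (0.28, adjusted p = 0.00362) and miR-30a-3p (0.29, adjusted p = 5.17e-04), were lost in some fits that left out 1 library. Without Empty_Vector replicate 2, which is not part of this comparison, they were 0.13, 0.13 and 0.14, and miR-30c-5p went from 0.12 to -0.03. These members moved down together, and the reason was not tested. The number of members called higher was 1 without Empty_Vector replicate 2 or 3 or shRNA replicate 1 or 3, 2 without shRNA replicate 2 or shRNA_5bp replicate 4, and 6 without shRNA replicate 4.

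With shRNA_5bp against shRNA_2bp, 0 members were higher and 7 lower (59.6% of all miRNAs called, 36.9% up and 22.8% down). The median log2 fold change was -0.27 for the members and 0.16 over all tested miRNAs. That median over all miRNAs was 0.01 when only these 2 groups were fitted, so the values below shift with the fit. Without overlap, 0 lay above and 5 below all shRNA_2bp libraries (32.7% and 20.3% of all miRNAs). The difference was -0.96 ± 0.268 for miR-30d-3p (adjusted p = 0.00296), -0.93 ± 0.0589 for miR-30e-3p (adjusted p = 7.42e-14), -0.70 ± 0.121 for miR-30c-2-3p (adjusted p = 1.30e-05) and -0.58 ± 0.202 for miR-30b-3p (adjusted p = 0.0152). Among the guides it was -0.30 ± 0.0807 for miR-30e-5p (adjusted p = 0.00206), -0.24 ± 0.0507 for miR-30d-5p (adjusted p = 1.52e-04) and -0.14 ± 0.0592 for miR-30c-5p (adjusted p = 0.0498). The miR-30c-5p call was lost without Empty_Vector replicate 4, any shRNA_2bp library or shRNA_5bp replicate 1, 2 or 3, and under scaling by totals (adjusted p = 0.376). The miR-30b-3p call was lost without shRNA_2bp replicate 2 or 3, and after thinning all libraries to the same depth (-0.50, adjusted p = 0.0828). MiR-30a-5p, miR-30b-5p and miR-30a-3p were not called, with 95% intervals of -0.17 to 0.07, -0.34 to 0.17 and -0.07 to 0.21. For miR-30a-5p this depended on the fit. It was called lower with shRNA_5bp when only these groups were fitted (-0.21, adjusted p = 0.00608), with the Wald test of DESeq2 (-0.12, adjusted p = 0.0312) and when summed with miR-30e-5p (-0.20, adjusted p = 0.004). It was also called lower without Empty_Vector replicate 2 or 3, shRNA replicate 1, 2 or 3, or shRNA_5bp replicate 4 (-0.19 to -0.18, adjusted p 0.0163 to 0.0195). The ratio of miR-30c-5p to miR-30c-2-3p (0.58 ± 0.137, adjusted p = 0.0011) and the arm ratios of miR-30d (0.73 ± 0.263, adjusted p = 0.0299) and miR-30e (0.63 ± 0.111, adjusted p = 3.65e-05) lay further toward 5p with shRNA_5bp. In this comparison 38.4% of all pairs were called, 22.6% toward 5p and 15.8% toward 3p. The miR-30d call was lost without shRNA_2bp replicate 1 or shRNA_5bp replicate 1, 2 or 3. These same 3 ratios lay further toward 3p with shRNA_2bp than with shRNA (41.8% of all pairs called, 15.1% toward 5p and 26.7% toward 3p), and none of the 5 pairs was called between shRNA_5bp and shRNA (28.8% of all pairs called, 11.6% toward 5p and 17.1% toward 3p).

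Changes at neighbouring loci were set side by side. At the Mir30e and Mir30c-1 pair, miR-30e-3p rose 2.27-fold with shRNA_2bp, while miR-30c-1-3p had 12.6, 13.9, 20.7 and 13.1 CPM with Empty_Vector and 13.2, 21.7, 25.5 and 13.9 CPM with shRNA_2bp, overlapping ranges (0.36 ± 0.233, adjusted p = 0.185). With shRNA it had 11, 10.5, 9.81 and 9.67 CPM, below all controls (-0.51 ± 0.211, adjusted p = 0.0601; -0.49, adjusted p = 0.0489 with replicate number as a block). The ratio of miR-30c-5p, whose reads can come from either miR-30c locus, to miR-30c-1-3p was 74.7 to 140 with Empty_Vector and 181 to 246 with shRNA. This ratio moved toward 5p by 0.84 ± 0.183 on the log2 scale (adjusted p = 7.47e-04). Against shRNA, miR-30c-1-3p was higher with shRNA_2bp, without overlap (0.87 ± 0.237, adjusted p = 0.00229), where miR-30e-3p differed by 1.34. With shRNA_5bp, on 4 to 35 reads per library, miR-30c-1-3p was lower than with shRNA_2bp (-0.80 ± 0.28, adjusted p = 0.0158), where miR-30e-3p differed by -0.93. Neither call of miR-30c-1-3p was rerun under the alternatives. At the Mir30a and Mir30c-2 pair, both 3p arms rose with shRNA_2bp, by 0.58 and 0.98. At the Mir30b and Mir30d pair, miR-30b-5p rose with each hairpin. Under TMM scaling no rise of miR-30d-5p was called with all libraries, while under scaling by totals it was called higher with shRNA (0.23, adjusted p = 5.16e-04) and shRNA_2bp (0.13, adjusted p = 0.0241). The differences between neighbours themselves were not tested.

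The seed sharer outside the listed members, miR-384-5p, was most different with shRNA_5bp. It had 34.7, 31.8, 30.3 and 33.8 CPM with Empty_Vector and 69.1, 74.6, 64.4 and 75.4 CPM with shRNA_5bp, a fold change of 2.18 (log2 1.12 ± 0.137, adjusted p = 4.11e-08). With shRNA it had 37.8, 40.2, 44.2 and 41.5 CPM (0.32 ± 0.127, adjusted p = 0.053, or 0.04 with replicate number as a block). With shRNA_2bp it had 29.9, 38.9, 44.7 and 54 CPM, a difference of 0.33 ± 0.144 (adjusted p = 0.0444) that was lost without Empty_Vector replicate 2, 3 or 4, shRNA_2bp replicate 3 or 4, or shRNA_5bp replicate 2 (adjusted p up to 0.463). The guides miR-30a-5p and miR-30c-5p, with the same seed, had means of 2126 and 2618 CPM with shRNA_2bp and of 2050 and 2381 CPM with shRNA_5bp.

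Other guide families served as a comparison, described by counts alone. Of 9 let-7 and miR-98 5p arms, 0, 2 and 1 rose and 1, 3 and 5 fell with shRNA, shRNA_2bp and shRNA_5bp, with medians of 0.03, -0.02 and -0.31. Of 4 miR-181 5p arms, 3, 3 and 4 rose and none fell, with medians of 0.45, 0.42 and 0.71. Of both miR-26 5p arms, 1 rose with each hairpin. The 5 miR-30 guides had medians of 0.37, 0.63 and 0.50. Among 349 other miRNAs of at least 10 CPM, those most like the mean log2 level of the 5 guides over the 16 libraries were let-7g-5p (Pearson r = 0.92), miR-7a-1-3p (r = 0.91) and miR-181a-5p (r = 0.90). The libraries form 4 groups and share their scaling, so these values describe likeness only.

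Markers of other cell types moved with some of these results. The summed level of 8 vascular and fibroblast miRNAs, with miR-145a-5p at 0 in all Empty_Vector libraries, was 714 to 818 CPM with Empty_Vector, 675 to 768 CPM with shRNA, 1192 to 1427 CPM with shRNA_2bp and 1121 to 1298 CPM with shRNA_5bp. The sum of 6 astroglial miRNAs was 4016 to 4449 CPM, 3891 to 4366 CPM, 5853 to 6244 CPM and 4944 to 5250 CPM, in the same order. That of 8 neuronal miRNAs was 511523 to 546186 CPM with Empty_Vector, 401888 to 454086 CPM with shRNA, 340758 to 370877 CPM with shRNA_2bp and 321063 to 376316 CPM with shRNA_5bp. That sum contains miR-128-3p, and by single markers 3 of 8 rose and 2 fell with shRNA, 3 rose and 4 fell with shRNA_2bp, and 5 rose and 2 fell with shRNA_5bp. The sum of 6 microglial and leukocyte miRNAs was 51.1 to 61.4 CPM with Empty_Vector and 77.8 to 106 CPM with shRNA. It was 88.7 to 104 CPM with shRNA_2bp and 65.7 to 86.3 CPM with shRNA_5bp. The defining miR-223-3p and miR-142a-3p were at 0 in all groups. Of the 2 tested miRNAs of that list, 2 rose with shRNA, 1 with shRNA_2bp and 1 with shRNA_5bp. Of the tested markers, 4 of 6 vascular and 4 of 6 astroglial miRNAs rose with shRNA_2bp, and 4 of 6 and 5 of 6 with shRNA_5bp. With shRNA, 0 of 6 vascular markers rose, and 2 of 6 astroglial markers rose and 1 fell. The sum of 4 oligodendrocyte miRNAs was 119 to 150, 115 to 132, 151 to 176 and 106 to 154 CPM, in the order above. Over all tested miRNAs, 19.7%, 33.3% and 31.5% rose and 15.1%, 32.3% and 26.7% fell with shRNA, shRNA_2bp and shRNA_5bp. The part of these markers in the miR-30 results was not tested.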

How the data were processed

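The deposited table held raw counts of reads per mature miRNA in 16 libraries made from 100 ng of total RNA with 15 PCR cycles, per the labels' protocols. The submitters' processing notes name bcl2fastq 2.20.0.422, Trim Galore 0.6.0, cutadapt 1.15, Bowtie 1.1.1, edgeR and the build GRCm38.p6, with no step assigned to each. Levels, TMM factors (0.884 to 1.12) and tests were computed from those counts. All 16 libraries entered 1 fit in edgeR 4.0.16 (R 4.3.3; filterByExpr, robust quasi-likelihood F test), with Benjamini-Hochberg adjustment over 483 miRNAs per comparison. SE and 95% intervals derive from the F statistic. Arm balance was an arm-by-group term with a coefficient per library, over 146 pairs with a mean of at least 10 counts in each arm. In simulated counts for shRNA_2bp against Empty_Vector over 483 miRNAs, 78% of 1.5-fold and 91% of 2-fold changes were recovered, with 2 false calls among 283 unchanged miRNAs. For simulated arm pairs, 90.9% of 2-fold changes were recovered, with 4 false calls among 116 unchanged pairs. The simulated counts had the same dispersion for every miRNA, and as many single miRNAs were raised as lowered. The real libraries need not share these settings, so these rates are not error rates of the real comparison. Alternatives used DESeq2 1.42.0, limma 3.58.1, other scaling, filters, thinning and left-out libraries. All listed members were named, with seed sharers, miR-30c-1-3p and the 3 most similar miRNAs. Members and lists were chosen with earlier results of these data known. Replicate numbers are shared between groups, and libraries of the same number deviated together (r = 0.116 to 0.265 for shRNA with Empty_Vector, 0.103 to 0.167 for shRNA_2bp with Empty_Vector, 0.165 to 0.224 for shRNA_2bp with shRNA, over 360 miRNAs), which was taken as pairing above 0.1; the comparisons with shRNA_5bp fell short. No libraries were duplicates (chi-square per degree of freedom of at least 4.10 within groups). Reads carried no molecular identifiers.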

Additional observations from a re-analysis of the deposited data

Results flagged for a closer look

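Of 76 groups of 4 values examined, 6 held a library far from the other 3, where chance alone gives about 1 in 20. MiR-30d-5p in shRNA_5bp replicate 2 (10120 CPM) lay above the others, still below every library of the other groups. MiR-30c-2-3p in shRNA replicate 3 (50.99 CPM) lay below, and miR-30c-1-3p in Empty_Vector replicate 3 (20.74 CPM) above, the rest of their groups. The ratio of miR-30c-5p to miR-30c-1-3p in shRNA_5bp replicate 1 (564.5) rests on 4 reads of the 3p arm. The miR-30d ratio in Empty_Vector replicate 4 (812) was low, and the ratio of miR-384-5p to miR-384-3p in shRNA_2bp replicate 4 (0.6471) was high.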

How the results depend on the processing

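The rises of miR-30a-5p, miR-30b-5p, miR-30c-5p and miR-30a-3p with each hairpin over Empty_Vector kept direction and call under every alternative run. So did the 8 rises with shRNA_2bp over Empty_Vector. Low depth limits miR-30d-3p, miR-30b-3p and miR-30c-1-3p. The cause of the changes below was not tested.

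Scaling by library totals gave 0 members down with shRNA, shRNA_5bp and shRNA_2bp against shRNA, and turned miR-30d-5p with shRNA_2bp to 0.13, miR-30d-3p with shRNA_5bp to 0.19 and miR-30a-5p (shRNA_5bp against shRNA_2bp) to 0.0118. No filter on low counts gave 0 members down with shRNA, 1 down with shRNA_2bp, 4 up with shRNA_5bp and 1 up against shRNA. Fitting only the 2 groups gave 0 down with shRNA. Size factors of DESeq2 gave 0 down between shRNA_2bp and shRNA. Thinning gave 2 down with shRNA, 1 with shRNA_5bp and 0 between shRNA_2bp and shRNA, and 20, 40, 40 and 21 arm pairs of all miRNAs called in place of 36, 64, 61 and 42 (shRNA and shRNA_2bp against Empty_Vector, shRNA_2bp and shRNA_5bp against shRNA). Limma on log2 ratios gave 21 pairs with shRNA and 0 miR-30 pairs toward 5p.

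Values near 0 changed sign. MiR-30e-5p with shRNA (0.00165) was -0.0322 with the Wald test of DESeq2, -0.0305 with its size factors in edgeR, -0.0252 over miRNAs above 10 CPM, -0.0221 without miR-128-3p, -0.0242 without a filter, -0.0034 on 2 groups and -0.0402 thinned. For shRNA_5bp against shRNA, miR-30c-2-3p was -0.022 with the Wald test, -0.0119 with size factors and -0.188 unfiltered, and miR-30c-5p was -0.0865 unfiltered. MiR-30a-3p between shRNA_5bp and shRNA_2bp (0.07) was -0.00336 with the Wald test, -0.00206 with size factors, -0.0592 unfiltered, -0.0858 on 2 groups and -0.61 summed with miR-30e-3p. Thinning gave miR-30d-3p -0.143 with shRNA and 0.0219 (shRNA_5bp against shRNA), and miR-30b-3p -0.0515 with shRNA_2bp and 0.16 (shRNA_5bp against shRNA). Of arm ratios, thinning gave miR-30a -0.0691 with shRNA and -0.0948 with shRNA_5bp, miR-30d 0.23 with shRNA, miR-30e -0.0111 with shRNA_5bp, miR-30b -0.27 (shRNA_2bp against shRNA) and miR-30c-2 -0.0126 (shRNA_5bp against shRNA), and limma gave miR-30d 0.00498 (shRNA_5bp against shRNA). Summed with miR-30e, the miR-30a ratio was -0.25 with shRNA_2bp, -0.47 (shRNA_2bp against shRNA) and 0.40 (shRNA_5bp against shRNA_2bp), and miR-30e-3p with shRNA was 0.17.

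Summed shares moved with the total used. On TMM effective totals the 5p sum was 1.498% with Empty_Vector and 1.65% with shRNA_2bp, and the 3p sum 0.154%, 0.293% and 0.206% with Empty_Vector, shRNA_2bp and shRNA_5bp. Without miR-128-3p the 5p sums were 2.22%, 2.49%, 2.26% and 2.09%, and the 3p sums 0.227%, 0.246%, 0.400% and 0.299%.

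Leaving out each library gave 4 to 6 members up and 0 to 1 down with shRNA, 5 to 6 up and 1 to 3 down with shRNA_5bp, 1 to 6 up and 1 to 2 down for shRNA_5bp against shRNA, and 0 to 1 miR-30 pairs toward 5p with shRNA and with shRNA_2bp. It gave 6 to 9 members up for shRNA_2bp against shRNA, and 5 to 8 down for shRNA_5bp against shRNA_2bp. Ranges that crossed 0 for log2 changes were -0.123 to 0.013 (miR-30d-5p, shRNA_2bp), -0.0439 to 0.0911 (miR-30e-5p, shRNA), -0.0264 to 0.253 (miR-30b-3p, shRNA_2bp) and -0.623 to 0.107 (miR-30d-3p, shRNA_5bp). For shRNA_5bp against shRNA they were -0.0709 to 0.159 (miR-30c-5p) and -0.187 to 0.0829 (miR-30c-2-3p), and against shRNA_2bp -0.0587 to 0.107 (miR-30a-3p). For arm ratios they were -0.0178 to 0.0553 (miR-30a, shRNA), -0.0337 to 0.0834 (miR-30a, shRNA_5bp), -0.149 to 0.0145 (miR-30d, shRNA), -0.0584 to 0.121 (miR-30e, shRNA_5bp) and -0.424 to 0.266 (miR-30d, shRNA_5bp). Between hairpins they were -0.137 to 0.17 (miR-30b, shRNA_2bp against shRNA), -0.0581 to 0.059 (miR-30a) and -0.381 to 0.309 (miR-30d), both shRNA_5bp against shRNA.

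With replicate number as a block, the numbers of members called were unchanged with shRNA (4 up, 1 down) and shRNA_2bp (8 up). With shRNA_5bp the replicate block removed the call of miR-30c-2-3p (0.27, adjusted p = 0.0557), and for shRNA_5bp against shRNA it added 1 miR-30 pair toward 5p, miR-30b (0.55, adjusted p = 0.0482), and the call of miR-30c-5p (0.12, adjusted p = 0.0475), comparisons in which the numbers are not shown to pair libraries. Apart from miR-384-5p and miR-30c-1-3p with shRNA, it changed no other call.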
